A study of Drosophila melanogaster with 24 samples.

Results

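A group of 80 transcripts, of 15473 on the array, stood higher in the wing at both 24 and 36 h after puparium formation (APF) than at any stage up to 18 h APF. These members were chosen by their own stage means of log2 intensity. The lower mean of 24 and 36 h APF had to lie at least 1 log2 unit, a 2-fold difference, above the highest mean of the wandering stage of the last larval instar (L3) and 2, 6 and 18 h APF. In addition, 36 h APF had to lie under 3 units above 24 h APF, and 18 h APF under 1 unit above the highest of the 3 first stages. Levels at 18, 24 and 36 h APF, and their distance from the earlier stages, are therefore given below as descriptions without a test, and only the differences among L3, 2 and 6 h APF were tested. The rule set no difference among those 3 stages, but it used the highest of their means as a ceiling, so that their levels were not free of the choice.

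RNA of dissected Drosophila melanogaster wings was measured on 24 one-colour expression arrays. The groups were L3 and 2, 6, 18 and 24 h APF with 4 independent samples each and 36 h APF with 3, while 1 further 36 h array held a mixture of the RNA of its samples B and D. All groups carried the genotype w1118;+;+, a white-eyed laboratory strain, were raised at 25°C without any treatment and had 10 wings in a sample. Wings of L3, 2 h and 6 h APF were taken with presumptive notum, the tissue of the back of the thorax, and those of 18, 24 and 36 h APF without it, so that age and this part of the dissection cannot be told apart across that boundary. The step between 18 and 24 h APF, where the members went up, lies within the wings without notum. In tissue RNA of this kind, more cells of a type and more RNA in each cell cannot be told apart.

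During metamorphosis pulses of the steroid hormone ecdysone turn the wing disc, a folded epithelial sac, into the flat bilayer of the pupal wing. Between late larva and the middle of pupal life its cells finish their last divisions and leave the cell cycle, pack into a regular array and each put out an actin-rich hair. Veins take on their own cell shape, and the epithelium then begins to lay down the cuticle of the adult wing. The arrays at 18, 24 and 36 h APF span the last of the cell divisions and the start of this differentiation.

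The files name transcripts by FlyBase identifiers. The gene table used here gave a single gene for only 17 of the 15473, and 0 of the 80 members was among them, so that functions, gene families, markers of cell types and sequences of the members were not analysed here. It is also not known which members are transcripts of the same gene. The labelled tissue was not checked against marker genes for the same reason. The 2 transcripts of largest rise are described by identifier, and 4 more were picked after their values were seen, as the extremes of the change at 6 h and of the change after 24 h APF.

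The median over the members was higher in every 24 h sample than in every 18 h sample, as the rule favoured, and slightly higher again at 36 h APF. The median log2 intensity over the 80 members was 6.81, 7.10, 6.96 and 6.94 in L3 samples 1 to 4. At 2 h APF it was 6.94, 6.94, 7.18 and 6.72 in samples B, C, D and E, and at 6 h APF it was 7.23, 7.29, 7.17 and 7.23 in samples A, B, D and E. These 12 arrays lay close together, with the 6 h arrays at the upper end. At 18 h APF the 4 medians were 7.42, 7.50, 7.75 and 7.36 in samples A to D, at 24 h APF they were 9.57, 9.91, 9.61 and 9.56 in samples A, B, D and E, and at 36 h APF they were 10.11, 10.58 and 10.09 in samples B, C and D. Every 24 h median was thus above every earlier one, and every 36 h median above every 24 h one.

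**Figure D1:**
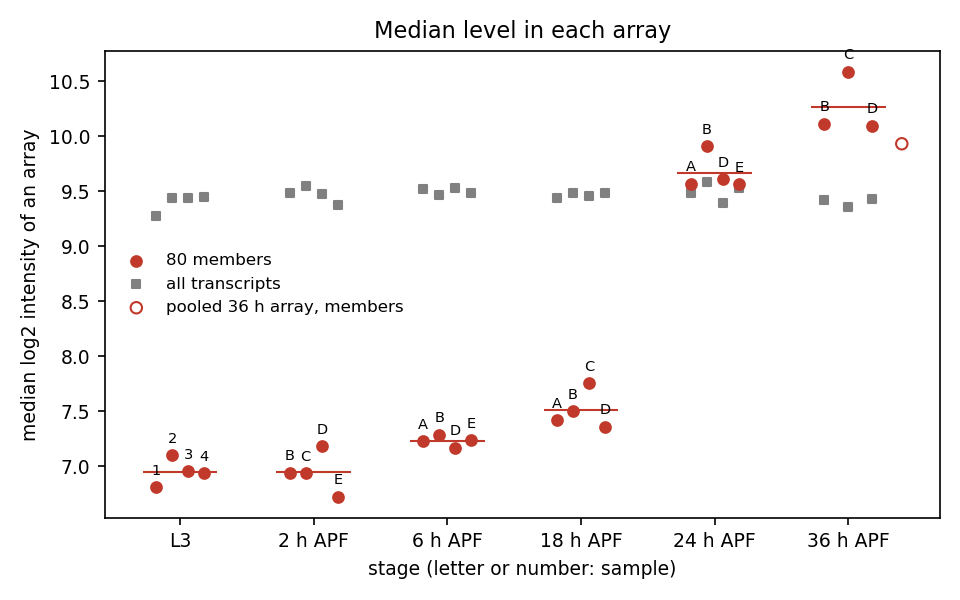
Median log2 intensity of the 80 members (red circles) and of all 15473 transcripts (grey squares) in each array, by stage, with samples marked by their number or letter, lines at the mean of the members' medians, and the pooled 36 h array as an open circle. The members' medians lie between 6.72 and 7.75 through 18 h APF, between 9.56 and 9.91 at 24 h APF and between 10.09 and 10.58 at 36 h APF, while the medians of all transcripts stay between 9.28 and 9.58.

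Averaged over the samples, these medians were 6.95 ± 0.12 at L3, 6.94 ± 0.19 at 2 h, 7.23 ± 0.05 at 6 h, 7.51 ± 0.17 at 18 h and 9.66 ± 0.17 at 24 h APF (SD, n = 4 each), and 10.26 ± 0.28 at 36 h APF (SD, n = 3). The median of all transcripts on an array stayed between 9.28 and 9.58, since quantile normalization gives all arrays a similar distribution. In the pooled 36 h array, which was not used for the choice but holds RNA of samples B and D that were, the members' median was 9.93, and 65 of the 80 (81.2%) stood at least 1 log2 unit above their highest earlier stage mean, beside 14.1% of all transcripts. The rule had chosen on that RNA and on that earlier mean, so nothing is read from the gap between these shares. The pooled array lay a median of 0.16 log2 units below the mean of samples B and D. For 10 members it fell over 2-fold below that mean, while 50 members were within 0.5 log2 units.

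The step from 18 to 24 h APF was large for all members, as the rule required, but its size varied. The difference of 24 minus 18 h APF had a median of 1.93 log2 units over the members, or 3.82-fold, with a range of 1.02 to 4.26, while the median over all transcripts was 0.03. In 70 of the 80 members (87.5%) every 24 h array was above every 18 h array, beside 8.57% of all transcripts on the array. In the other 10 at least 1 pair of arrays crossed. In 66 members (82.5%) all 7 arrays of 36 and 24 h APF were above all 16 arrays of the earlier stages, beside 1.36% of all transcripts. Nothing is read from either share, because the rule had already chosen on these stages. Of the 4 arrays at 18 h APF, sample C stood apart from the others.

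How far the late stages cleared the earlier ones also differed among members. The rise, taken as the lower late mean minus the highest earlier mean, had a median of 1.56 log2 units, or 2.95-fold, and quartiles of 1.28 and 1.96. It was under 1.5 in 35 members, at least 2 in 19 and at least 3 in 4 members, with a largest value of 3.90 units (14.9-fold). The lowest rise inside the bound was 1.003 and the highest outside it 0.996, and 7 members lay within 0.1 units inside the bound against 13 other transcripts within 0.1 outside it. The highest value of 36 minus 24 h APF inside its bound was 2.74 and the lowest outside it 3.02, and that bound alone kept out 10 transcripts. For 18 h APF over the first stages the values on either side of the bound were 0.97 and 1.03, and 26 transcripts were kept out by that bound alone. The edge of the group on the rise is thus crowded, and the bound on 36 h APF is not.

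FBtr0086215 had the largest rise. It read 7.11, 7.85, 7.55 and 7.73 at L3, 7.88, 7.11, 8.44 and 6.99 at 2 h, 6.43, 6.21, 7.26 and 6.00 at 6 h, 8.31, 8.23, 9.05 and 8.35 at 18 h, 12.90, 13.20, 12.23 and 12.37 at 24 h, and 12.31, 12.47 and 12.38 log2 units at 36 h APF. All 7 late arrays were far above all earlier ones, and the 36 h arrays lay within the range of the 24 h arrays. Its mean was 12.68 ± 0.45 at 24 h APF and 8.49 ± 0.38 at 18 h APF (SD, n = 4 each). Before that climb it was lower at 6 h than at L3, by 1.08 log2 units with an SE of 0.31 (limma, adjusted p = 0.0073), and than at 2 h APF, by 1.13 with an SE of 0.31 (adjusted p = 0.0071), and it kept both calls when any 1 array was left out. The lowest stage of this transcript was thus 6 h APF, and its 24 and 36 h arrays overlapped.

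FBtr0085463, with the second largest rise at 3.19 log2 units (9.13-fold), went up in a pair of steps. It read 5.71, 6.35, 6.33 and 6.58 at L3, 6.27, 6.15, 7.22 and 6.12 at 2 h, 8.80, 6.51, 7.27 and 6.48 at 6 h, and 7.42, 6.30, 5.93 and 6.79 at 18 h APF. It then read 10.64, 10.66, 10.20 and 10.32 at 24 h and 12.41, 13.13 and 12.60 log2 units at 36 h APF. The 36 h arrays were all above the 24 h arrays, and both stages were above all others. At 6 h APF its samples were spread over more than 2 units, and it passed the test as higher than at L3 only narrowly (1.02 log2 units, SE 0.41, limma, adjusted p = 0.049). Without 6 h sample A the difference was 0.51 with an adjusted p of 0.24, and 18 of the 23 fits with 1 array left out did not make the call.

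**Figure D2:**
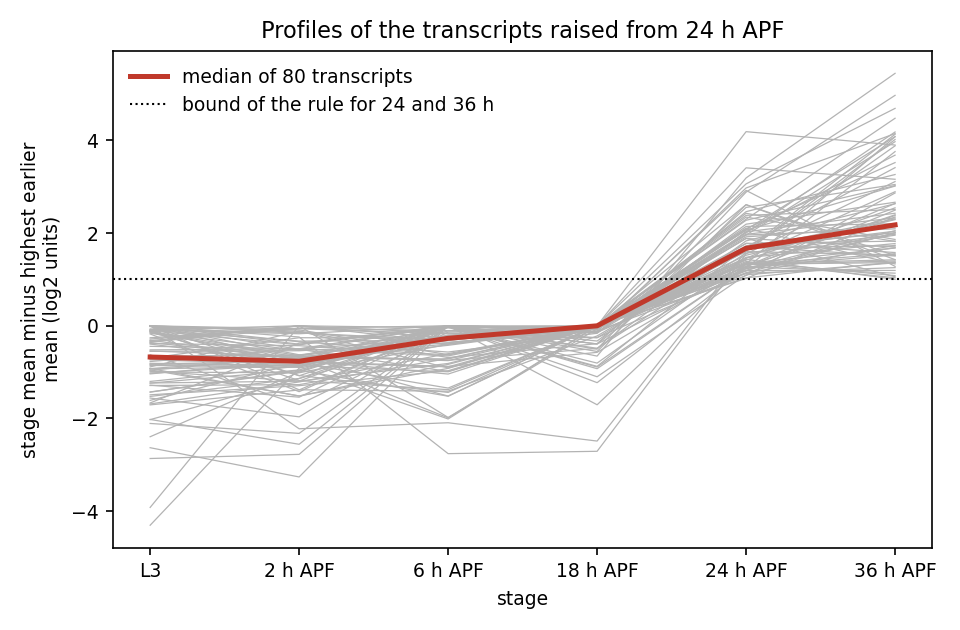
Stage means of the 80 members as differences from each member's own highest mean among L3, 2, 6 and 18 h APF, in log2 units, over the 6 stages, with 1 grey line per member, the median in red and the bound of the rule dotted. The lines are spread widely over the first 4 stages, lie mostly near 0 at 18 h APF and stand above 1 at 24 and 36 h APF because the rule required it.

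From 24 to 36 h APF the members parted. The difference of 36 minus 24 h APF had a median of 0.46 log2 units (1.37-fold) over the members and -0.06 over all transcripts, and it ran from -1.64 to 2.74. In 25 members 36 h APF was at least 1 unit higher, in 52 the stages lay within 1 unit, and in 3 it was at least 1 unit lower. The stage with the lower late mean was 24 h APF for 63 members and 36 h APF for 17. All 36 h arrays were above all 24 h arrays in 27 of the 80 members, beside 14.7% of all transcripts, and below them in 4, beside 28.7% of all transcripts. Since the rule put a lower limit on 36 h APF as well as an upper one, it limited how far members could fall, and these counts describe the group only.

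The 25 members that were at least 1 unit higher at 36 h had a median level of 12.32 at 36 h and 10.14 at 24 h APF. The 52 that stayed within 1 unit had medians of 9.35 and 9.41 at those stages. At L3, 2, 6 and 18 h APF the medians were 6.82, 6.98, 7.61 and 7.66 for the 25 members and 6.92, 6.53, 6.78 and 7.24 for the 52. By stage means, the late course of the members thus ran from a fall in 3 of them, through a difference under 1 unit in most, to a climb that continued. Arrays of a stage could lie far apart. In 1 of the 52 members the SD was 1.74 at 24 h (n = 4) and 2.82 at 36 h APF (n = 3). In the 3 that fell the SD at 36 h APF was 0.99 to 1.16 (n = 3).

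FBtr0089055 went up most between 24 and 36 h APF. It read 5.85, 6.04, 6.08 and 6.05 at L3, 6.06, 5.77, 6.50 and 6.04 at 2 h, 8.71, 9.43, 8.73 and 8.60 at 6 h, 7.59, 7.46, 6.68 and 6.93 at 18 h, 10.08, 10.03, 10.73 and 9.98 at 24 h, and 13.19, 12.82 and 12.82 log2 units at 36 h APF. The 6 h arrays stood above all arrays of L3, 2 h and 18 h APF, so that this transcript was high at 6 h, lower at 18 h and high again from 24 h APF. At 6 h it was 2.86 log2 units above L3 with an SE of 0.22 (limma, adjusted p = 9.4e-10) and 2.77 above 2 h APF with an SE of 0.22 (adjusted p = 2.5e-09), and neither call was lost without any 1 array.

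FBtr0087284 had the lowest value of 36 minus 24 h APF. It read 5.77, 6.06, 6.31 and 6.49 at L3, 6.15, 6.79, 6.52 and 6.32 at 2 h, 7.99, 7.30, 6.90 and 7.40 at 6 h, 6.66, 7.25, 8.22 and 7.11 at 18 h, 9.51, 11.06, 10.33 and 10.37 at 24 h, and 10.01, 7.93 and 8.09 log2 units at 36 h APF. Sample B of 36 h APF lay within the range of the 24 h arrays, while samples C and D were below all of those and also below sample C of 18 h APF. Without 36 h sample B the mean of 36 h was 8.01, the difference from 24 h APF was -2.31 and the rise was 0.62, under the bound, so that 1 array decided that this transcript was counted as held. It was called higher at 6 h APF than at L3, by 1.24 log2 units with an SE of 0.40 (limma, adjusted p = 0.017). Without L3 sample 1 or 6 h sample A that adjusted p was 0.053 or 0.063.

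**Figure D3:**
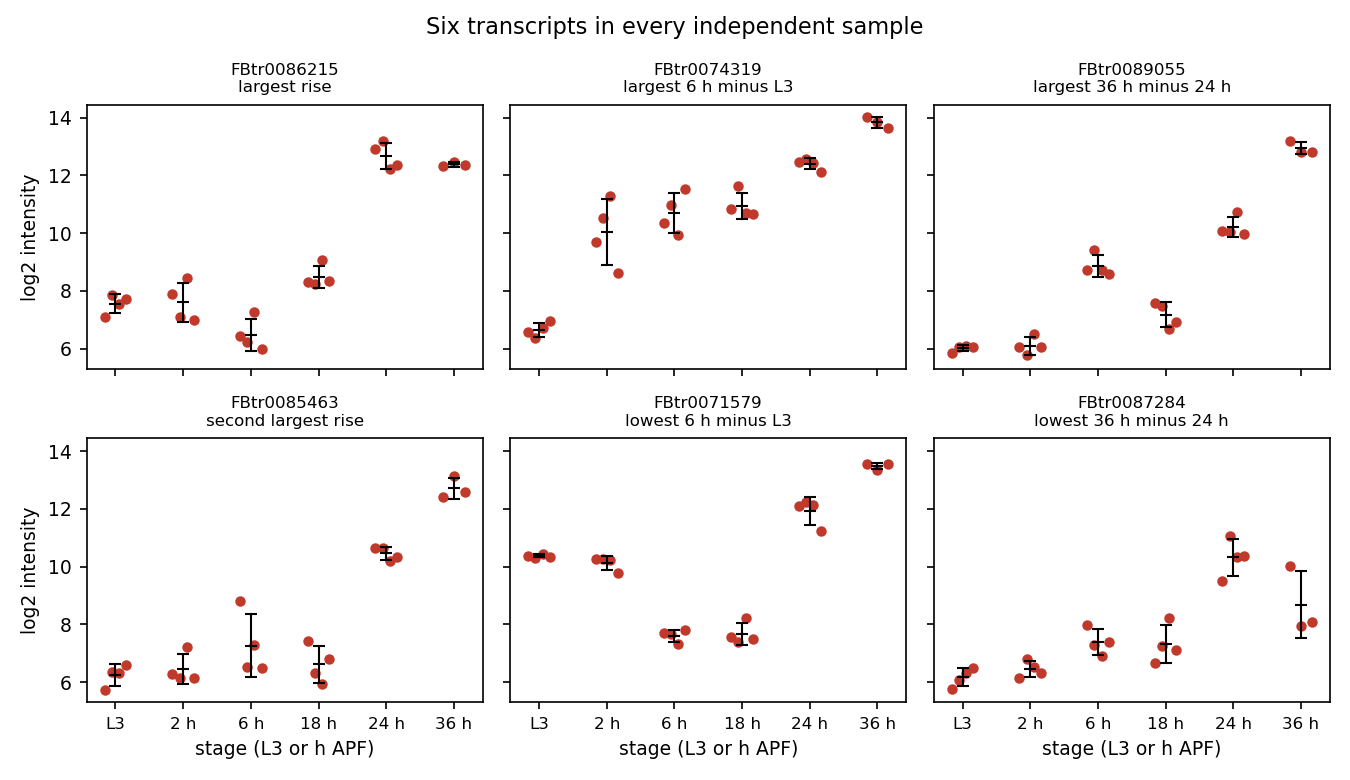
Log2 intensity of the 6 transcripts described by identifier in every independent sample (red points), by stage, with the mean and SD in black (n = 4 at each stage, 3 at 36 h APF). All stand high at 24 h APF, but the panels differ at 6 and at 36 h APF. At 6 h APF, FBtr0074319 and FBtr0089055 lie furthest above L3 and FBtr0071579 furthest below it. At 36 h APF the 3 samples of FBtr0087284 spread from 7.93 to 10.01.

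Among the first 4 stages, which the rule only held below a ceiling, members differed in which stage was highest. Some stage is highest in any transcript, even a flat one, and the counts of members that follow were not taken over all transcripts. The highest earlier mean was at 18 h APF for 41 members, at 6 h for 22, at L3 for 12 and at 2 h APF for 5. The mean at 18 h APF was 0.5 or more above the highest of L3, 2 and 6 h in 14 members, and 1 or more below it in 5. From 6 to 18 h APF the median difference was 0.25 log2 units for the members and 0.06 for all transcripts. Without 18 h sample C the members' median difference was 0.15, so that this 1 array carried much of it. Single members went either way, between -1.70 and 2.01.

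Among the tested comparisons, 2 h APF against L3 had the fewest calls, both for the members and over all transcripts. Of the 80 members, 5 (6.25%) were called higher at 2 h APF, beside 10.9% of all transcripts, and 7 (8.75%) were called lower, beside 10.5% (limma, adjusted p under 0.05 over all transcripts). Both shares of members were below the shares of the array in this fit, but whether members differ from other transcripts was not tested. In a fit of only these 2 stages 14 of the 80 members were called lower, beside 2430 of the 15473 transcripts. The share of members called lower was then above that of the array. The 5 were higher by 0.81 to 3.92 log2 units, and the 7 lower members changed by -2.22 to -0.94. The median change was -0.04 over the members and -0.04 over all transcripts, and on the 2 slides that held an array of both stages the members' median was -0.04 and -0.09. The count of 7 was 4 without L3 sample 3, and also 4 without 2 h sample D. Over all transcripts the count called lower was 1627, and 1259 and 1244 in those 2 runs.

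Between 6 and 2 h APF more transcripts were called, both among the members and over the whole array. More members were called higher than lower, while over the whole array more transcripts were called lower. At 6 h APF 17 members (21.2%) were called higher than at 2 h APF, beside 15.0% of all transcripts, and 8 (10.0%) were called lower, beside 20.4% (limma). The 17 rose by 0.61 to 3.26 log2 units with a median of 1.38, and the 8 changed by -2.52 to -0.53. The median change was 0.30 over the members and -0.03 over all transcripts, and 0.20 over the members without 2 h sample E. On the 3 slides with an array of both stages the members' median change was 0.32, 0.09 and 0.29, so that it had the same sign on each.

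Against L3, 20 members (25.0%) were called higher at 6 h APF, beside 18.8% of all transcripts, and 13 (16.2%) were called lower, beside 24.0% (limma). The 20 were higher by 0.50 to 4.05 log2 units with a median of 1.61, and the 13 changed by -2.76 to -0.56 with a median of -1.08. The remaining 47 did not pass the test. The members' median change was 0.18, against -0.04 for all transcripts, and 0.18 and 0.27 on the 2 slides that held both stages. With array medians centred again it was 0.08. The share of members called higher was above that of the array and the share called lower below it in both comparisons with 6 h APF, but whether members differ from other transcripts in this was not tested, and the ceiling in the rule bears on these stages.

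FBtr0074319 was the member with the largest change at 6 h APF. It read 6.57, 6.35, 6.70 and 6.97 at L3, 9.70, 10.53, 11.27 and 8.64 at 2 h, 10.35, 10.97, 9.95 and 11.51 at 6 h, 10.83, 11.63, 10.69 and 10.65 at 18 h, 12.47, 12.58, 12.43 and 12.13 at 24 h, and 14.02, 13.86 and 13.65 log2 units at 36 h APF. Every array from 2 h APF on was above every L3 array, and the 24 h and 36 h arrays each made a further level. It was higher at 6 h than at L3 by 4.05 log2 units with an SE of 0.40 (limma, adjusted p = 4.1e-08) and already higher at 2 h APF by 3.39 with an SE of 0.40 (adjusted p = 3.0e-06). Its difference between 6 and 2 h APF, 0.66 with an SE of 0.40, did not pass (adjusted p = 0.22). With 1 array left out it ran from 0.20 to 1.07, and without 2 h sample D it passed (1.07, adjusted p = 0.030). The step from 18 to 24 h APF by which it was chosen thus came after a difference already present at 2 h APF.

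FBtr0071579 was the opposite case, with the largest fall at 6 h APF. It read 10.38, 10.31, 10.44 and 10.35 at L3, 10.27, 10.27, 10.21 and 9.76 at 2 h, 7.69, 7.65, 7.31 and 7.79 at 6 h, 7.57, 7.39, 8.21 and 7.48 at 18 h, 12.10, 12.24, 12.14 and 11.22 at 24 h, and 13.55, 13.36 and 13.54 log2 units at 36 h APF. The arrays of 6 and 18 h APF were below all others, and those of 24 and 36 h APF above all others. At 6 h it was lower than at L3 by 2.76 log2 units with an SE of 0.20 (limma, adjusted p = 3.9e-10) and lower than at 2 h APF by 2.52 with an SE of 0.20 (adjusted p = 2.6e-09). This transcript was thus well above its 6 h level in the larval wing, and its late level exceeded both.

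**Figure D4:**
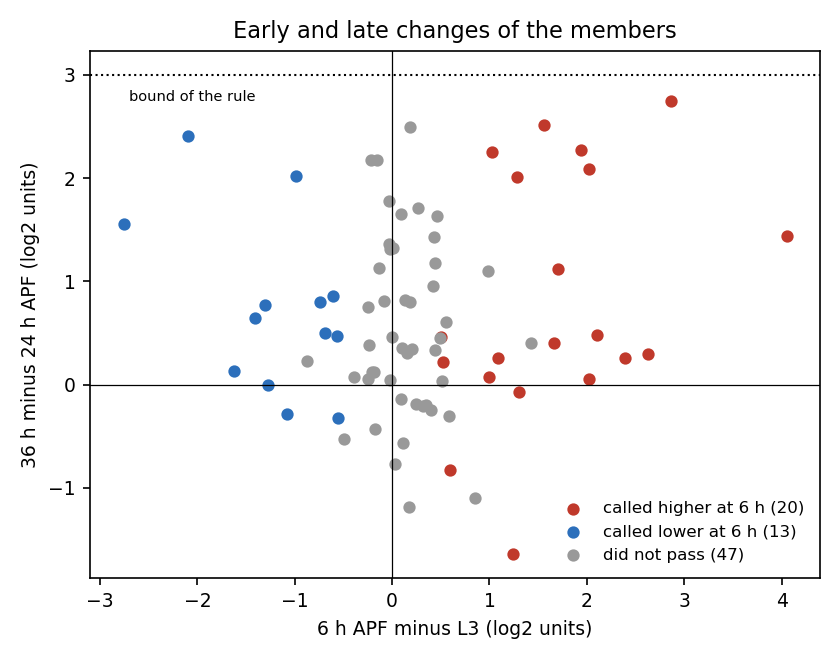
Change of each of the 80 members between 6 h APF and L3 (horizontal axis) and between 36 and 24 h APF (vertical axis), both in log2 units, coloured by the limma call for 6 h against L3, with the bound of the rule on the vertical axis dotted. Members called higher (20), called lower (13) and not past the test (47) all spread over a range of late changes.

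Split by that tested change, the members are described here by their median levels. The split was made on L3 and 6 h APF, so the order of those medians in the called groups follows from it. Choosing on a high or low 6 h mean also bears on how many members were lower at 18 h than at 6 h APF. The 20 that were higher at 6 h had median levels of 6.65 at L3, 7.54 at 2 h, 9.13 at 6 h, 8.73 at 18 h, 11.11 at 24 h and 12.04 at 36 h APF, and 12 of them were lower at 18 h than at 6 h APF. The 13 that were lower at 6 h had medians of 8.76, 7.98, 7.48, 8.49, 11.04 and 11.24 over the same stages, with 1 of them lower at 18 h than at 6 h APF. The 47 others had medians of 6.61, 6.46, 6.72, 6.96, 8.83 and 9.51. In the 3 groups the median of 24 minus 18 h APF was 2.20, 1.97 and 1.79 log2 units, where the rule required at least 1 of every member.

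The 80 members can be set beside a pair of neighbouring time courses chosen by the same kind of rule. These were 185 transcripts raised from 18 h APF and held, and 1051 raised at 36 h APF alone. By their bounds on 18 and 24 h APF, these sets could have 0 transcripts in common with the members. At 6 h APF against L3, 25.0% of the members, 37 of the 185 transcripts of the first set and 16.3% of the second set were called higher, while 16.2%, 16.2% and 4.95% were called lower (limma). At 6 against 2 h APF the shares called higher were 21.2%, 18.4% and 14.7%, and the shares called lower 10.0%, 11.9% and 5.23%. At 2 h APF against L3 they were 6.25%, 8.65% and 9.42% higher and 8.75%, 8.11% and 3.71% lower. Over all transcripts 18.8%, 15.0% and 10.9% were called higher and 24.0%, 20.4% and 10.5% lower in these 3 comparisons. The median changes had another order than the shares called higher. At 6 against 2 h APF they were 0.30 for the members, 0.07 for the first set and 0.51 for the second, and at 6 h APF against L3 they were 0.18, -0.0039 and 0.19. These differences between sets were not tested.

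To see the late rise in arrays that had not been used to choose, the rule was applied without each array of 18, 24 or 36 h APF in turn and the chosen transcripts were looked up in the array left out. For 18 h APF the count was of transcripts whose lower late mean was at least 1 log2 unit above the left-out array. It was 73 of 81 transcripts in sample A, beside 3.18% of all transcripts, 68 of 83 in sample B, beside 3.24%, 60 of 87 in sample C, beside 2.78%, and 70 of 76 in sample D, beside 2.84%. Sample C thus met it least often, at 69.0% of those chosen.

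For 24 h APF the left-out array itself had to lie at least 1 unit above the highest earlier mean. It did so for 70 of 84 transcripts in sample A, beside 1.44% of all transcripts, for 67 of 79 in sample B, beside 6.31%, for 67 of 88 in sample D, beside 2.87%, and for 68 of 89 in sample E, beside 1.87%. For 36 h APF the counts were 69 of 83 in sample B, beside 10.9%, 69 of 80 in sample C, beside 9.02%, and 69 of 81 in sample D, beside 10.3%. In all 11 left-out arrays, most of the transcripts chosen on the others kept the 2-fold difference. All these counts share the remaining arrays with one another. The mean that each left-out array was set against had also been used to choose the transcripts. The shares over all transcripts, which were not chosen, are therefore not an equal yardstick, and nothing is read from the gap.

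**Figure D5:**
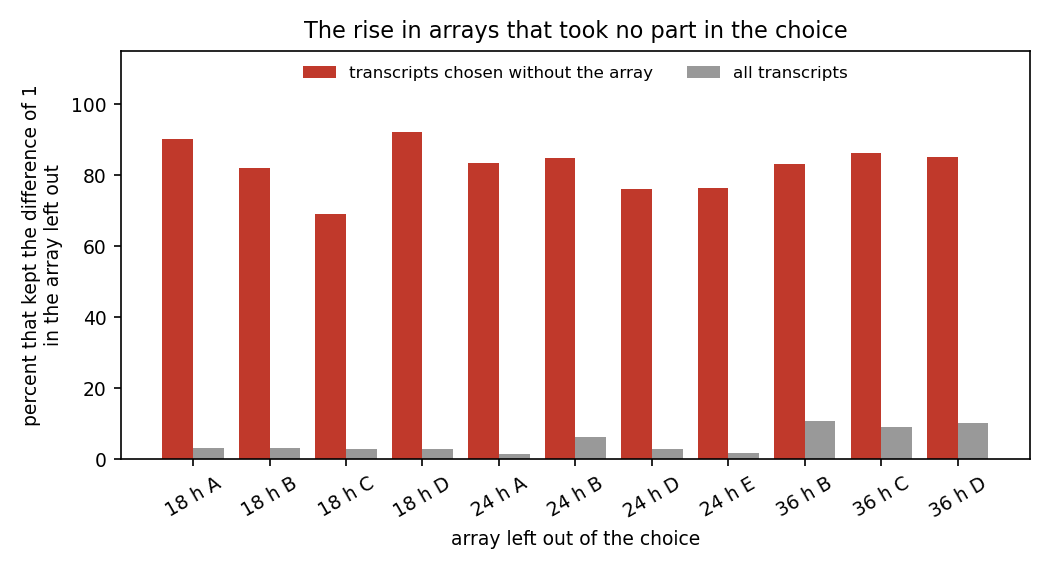
Percent of transcripts that kept a difference of at least 1 log2 unit in an array left out of the choice (red, transcripts chosen on the other arrays) and the same percent over all 15473 transcripts (grey), for each array of 18, 24 and 36 h APF. The red bars lie between 69.0% in 18 h sample C and 92.1% in 18 h sample D, and the grey bars between 1.44% and 10.9%.

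The arrays lay on 6 slides, and 2 slides held an array of both 24 and 18 h APF. On the slide with sample A of both stages the median of 24 minus 18 h APF over the members was 1.94 log2 units, and all 80 were higher at 24 h, beside 51.3% of all transcripts. On the slide with 24 h sample B and 18 h sample C it was 1.84, with 79 of 80 higher, beside 62.3% of all transcripts. On the 3 slides with an array of 36 and of 24 h APF the median of 36 minus 24 h APF was 0.43, 0.25 and 0.75 over the members, and -0.07, -0.20 and -0.05 over all transcripts. These are arrays on which the members were chosen, so nothing is read from the shared direction.

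Some arrays stood apart from their stage over the whole array. In 18 h sample C 11.5% of all transcripts, and 14 members, lay more than 2-fold away from what the remaining 18 h arrays averaged. In 24 h samples B and D this held for 11.7% and 8.63% of all transcripts and for 9 and 11 members, and in the 36 h samples for 7.17% to 10.3% and for 11 to 12 members. The members' median deviation from the other arrays of the stage was 0.18 in 18 h sample C, 0.23 in 24 h sample B and -0.01 in 24 h sample D, and it was -0.01, 0.27 and -0.19 in 36 h samples B, C and D. Chosen without these 3 arrays of 18 and 24 h APF the group had 85 transcripts, of which 71 were among the 80, or 83.5% of the new list and 88.8% of the members.

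Most members were below the middle of the signal range before the step, which limits what the early stages can show. The highest earlier mean was below 9.46, the median of all log2 values, in 64 members (80.0%), beside 44.3% of all transcripts. In 16 (20% of members) it was below the lower quartile of 6.58, beside 19.7% of all transcripts. The rule used this mean as its ceiling, and a member needed room to rise 2-fold above it, so nothing is read from these shares. At 24 h APF 43 members and at 36 h APF 52 had a mean above 9.46. RMA compresses differences of dim transcripts, and probes differ in how strongly they bind, so these counts do not order the members by abundance. Each transcript was read by 3 to 5 probes, and 52 members (65.0%) had 5, beside 65.3% of all transcripts. The members' values also varied more within a stage than those of the array, with a median SD of 0.36 against 0.29 at 24 h APF and of 0.39 against 0.25 at 18 h APF. Transcripts were not matched by level for this, so it is not read as a trait of the members.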

How the data were processed

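RNA of dissected wings was measured on 24 NimbleGen expression arrays, which the authors scanned and quantile normalized together, with RMA used to make 1 value per transcript. The deposited files of single samples hold linear intensities for 15473 transcripts, and log2 values were computed from them. A deposited table of the whole series holds log2 values for 15469 transcripts and served as an alternative, but its 4 L3 columns are swapped among themselves. Quantile normalization hides a change in total RNA. For the array build and the annotation release, the sources used here give nothing. No background call was available. Precision is limited by how many arrays there were.

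Titles and descriptions set the groups, and for 14 arrays another label, a developmental stage, does not match them. The samples were described as independently obtained. The slide of L3 sample 3 was read from an incomplete number. The pooled array stayed out of the 23 arrays that were fitted.

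The members, the lists and the comparison sets were chosen with earlier results of these data known. The rule for named transcripts took every member tied to 1 gene and, with fewer than 10 of those, the 2 of largest rise by identifier. Gene lists, cell type markers and promoter motifs had been planned and were left out, since no member could be named.

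Differences among L3, 2 and 6 h APF were tested by lmFit and eBayes of limma 3.58.1 (R 4.3.3), with all 6 stages in 1 fit. P-values were adjusted by Benjamini-Hochberg over the 15473 transcripts, and those under 0.05 were called. The fit was tested on simulated data. Figures used matplotlib 3.10.9. Alternatives were the log2 table, recentred medians, cyclic loess, only the stages compared, slide and replicate letter as blocks, a trended eBayes, an ANOVA without moderation, the pooled array kept, dim transcripts left out, other bounds of the rule and each array left out. A run without 3 arrays that stood apart was added after the data were seen.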

Additional observations from a re-analysis of the deposited data

Results flagged for a closer look

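In 7 of 35 groups of 4 samples, taken over the members' median and the 6 transcripts described by identifier, 1 sample lay far from the other 3 of its stage. Chance flags about 1 in 20 such groups. Over all 80 members the same held in 32 of 400 groups. That count was not taken over all transcripts, and the groups share arrays and are not independent, so nothing is read from it. The members' median was 9.91 in 24 h sample B, above the other 24 h arrays. FBtr0086215 read 9.05 in 18 h sample C, above its stage, and FBtr0085463 read 7.22 in 2 h sample D, also above its stage. FBtr0071579 was below its stage at 9.76 in 2 h sample E and at 11.22 in 24 h sample E. FBtr0089055 was above its stage at 9.43 in 6 h sample B and at 10.73 in 24 h sample D. Groups of 3 samples, as at 36 h APF, were not examined in this way. The causes were not tested.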

How the results depend on the processing

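The number of members was 80 and ran between 54 and 117 over 11 settings. It was 54 with dim transcripts left out, 65 with a rise of at least 1.2 and 117 with a rise of at least 0.8, and 76 to 89 with 1 array left out. With recentred medians 77 of 81 transcripts were among the members (95.1% of that list, 96.2% of the members), and with cyclic loess 74 of 80. Of the tested counts, 1 moved by over 1.5 times. The members called lower at 2 h APF than at L3 were 7, and 14 in a fit of only the 2 stages compared. Over all transcripts that count went from 1627 to 2430. With 1 array left out the members so called were 4 to 8. The cause was not tested. With slide as a fixed block, 24 members were called higher and 12 lower at 6 h APF against L3, beside 2849 and 3682 of all 15473 transcripts. Replicate letters are shared by 2 and 6 h APF, but same-lettered samples did not deviate together (correlations of 0.03, 0.02 and -0.01 for B, D and E). With the replicate letter as a block, 18 members were called higher and 6 lower at 6 against 2 h APF, beside 17 and 8 without it. Over all transcripts the counts were 1911 and 2604 with the block and 2314 and 3157 without it. No paired analysis was possible for L3 because its samples carry numbers, not letters. The median of 18 minus 6 h APF ran from 0.15 (without 18 h sample C) to 0.32 with 1 array left out, and was 0.16 with stage medians and 0.17 with cyclic loess. The median of 24 minus 18 h APF ran from 1.85 to 2.08 with 1 array left out, and that of 36 minus 24 h APF from 0.38 to 0.57, and it was 0.31 with cyclic loess. Without 18 h sample C and 24 h samples B and D, which share the fit, 23 members were called higher and 10 lower at 6 against 2 h APF. Over all transcripts these counts were 2747 and 3365. At 2 h APF against L3 that run called 5 members higher and 10 lower, beside 1885 and 1940 of all transcripts. The early calls thus also depended on the spread of late arrays in the fit. Dim early levels and 3 or 4 arrays a stage limit the early comparisons.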
